A study of Homo sapiens with 38 samples.

Results

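The lysosome is the acidic compartment in which cells break down material delivered by endocytosis and autophagy. Here 49 genes that encode its parts were followed through the silencing of VPS4A and VPS4B: 24 genes for luminal hydrolases and their cofactors, 9 for lysosomal membrane proteins and 16 for subunits of the V-ATPase, the proton pump that acidifies the lumen. The genes were listed by name, with earlier results of these data known, and 49 of 49 were found in the deposited table of 12627 genes. The study silenced the ATPases VPS4A and VPS4B, singly and together, in HCT116 cells, a human colorectal carcinoma line, and measured mRNA by Ion AmpliSeq, a targeted amplicon sequencing of the transcriptome. It gives 38 libraries in 9 conditions, and 37 of them enter the comparisons.

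Cells were collected 72 h after transfection with Lipofectamine RNAiMAX. NT cells were not transfected. The control duplex siCTRL#1 was given at 60 nM, whereas the labels used here state no dose for the other control duplex, siCTRL#2. VPS4A alone was silenced with siVPS4A#1 or siVPS4A#2 and VPS4B alone with siVPS4B#1 or siVPS4B#2, each at 30 nM together with 30 nM siCTRL#1. Combined silencing used 30 nM of each of a pair of duplexes. The first pair, siVPS4A+B#1, joined siVPS4A#2 with siVPS4B#1, and the second pair, siVPS4A+B#2, joined siVPS4A#1 with siVPS4B#2. There were 5 libraries each of siCTRL#1 and siVPS4A#1 and 4 of every other condition, and 4 of those of siVPS4A#1 enter the comparisons. The libraries are transfections of a single cell line with numbered replicates, so the p-values measure the spread between these libraries.

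The 37 libraries held between 5090666 and 11035293 reads, with a median of 7560610 over all 38. Levels are given as TMM-scaled reads per 1000000 reads (RPM), listed in replicate order, with means ± SD over libraries. A floor of 3 reads corresponded to at most 0.589 RPM in these libraries. Such floors cover counting error only, because amplicon reads are not independent molecules. A log2 fold change is the difference of log2(RPM + 1), which understates the change of low genes, and its SE and adjusted p come from limma. A gene was called higher or lower at an adjusted p under 0.05 together with a fold of at least 1.5.

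Luminal hydrolases are made in the endoplasmic reticulum, and many are tagged with mannose 6-phosphate and sorted to endosomes. Each acts on its own class of substrate, and the loss of a single enzyme or transporter can cause a lysosomal storage disease. The V-ATPase consists of a membrane sector, V0, which carries protons, and a cytosolic sector, V1, which hydrolyses ATP. Many lysosomal genes carry in their promoters a short palindromic motif bound by TFEB and its relatives, and VPS4A and VPS4B disassemble the ESCRT-III polymers that bud vesicles into endosomes and reseal membranes.

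The silenced genes were examined first, as a check of the labels. VPS4A (chr16:69345253-69360842, plus strand, GRCh37) stood at 198, 173, 179.5, 192 and 207 RPM in siCTRL#1. It measured 3.52, 1.63, 1.88 and 1.71 RPM in siVPS4A#1 and 5.89, 6.20, 8.93 and 10.5 RPM in siVPS4A#2. Every library given a VPS4A duplex lay far below every library that received none. Under combined silencing VPS4A measured 12.9, 33.9, 22.4 and 10.6 RPM in siVPS4A+B#1, a log2 fold change against siCTRL#1 of -3.33. In siVPS4A+B#2 it measured 3.05, 7.69, 4.32 and 5.05 RPM, a log2 fold change of -5.05. The second pair thus left less VPS4A mRNA than the first, with a log2 difference between them of -1.72 (SE 0.23, adjusted p = 1.58e-07). In the conditions without a VPS4A duplex its mean was 249 ± 54.99 RPM in NT, 233 ± 13.5 in siCTRL#2, 205 ± 20.48 in siVPS4B#1 and 210.4 ± 29.2 in siVPS4B#2.

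VPS4B (chr18:61056423-61089716, minus strand, GRCh37) measured 23.9, 20.2, 16.4, 18.2 and 24.6 RPM in siCTRL#1. It fell to 0.763, 0.680, 0.133 and 0.154 RPM in siVPS4B#1 and to 0.945, 0.720, 1.05 and 1.57 RPM in siVPS4B#2. These libraries do not overlap with those of any condition without a VPS4B duplex. The first pair gave 0.312, 0.456, 0.358 and 1.03 RPM, a log2 fold change against siCTRL#1 of -3.78, and the second pair 1.52, 1.49, 1.28 and 0.842 RPM, a log2 fold change of -3.20. Several of these values are near or under the floor of 3 reads, so the fold is set in part by the added 1 RPM. VPS4B averaged 22.2 ± 5.44 RPM in NT, 31.8 ± 8.42 in siCTRL#2, 26.1 ± 4.49 in siVPS4A#1 and 19.7 ± 3.80 in siVPS4A#2.

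A single library went against its label. The library labelled siVPS4A#1, replicate 2, held only 669257 reads, where the floor of 3 reads is 4.48 RPM. It had 11.3 RPM of VPS4A, from 7 reads, and 1.62 RPM of VPS4B, from 1 read, although its label names no VPS4B duplex. It is left out of every value unless stated otherwise, so siVPS4A#1 is represented by replicates 1, 3, 4 and 5. Of 5 epithelial markers 5 were in the table, and their mean levels summed to 5284 RPM in siCTRL#1, KRT19 being the most abundant at 2482 RPM. The same sum was 4448 in NT, 5191 in siCTRL#2, 5403 in siVPS4A#1, 5655 in siVPS4A#2, 7045 in siVPS4B#1 and 5993 in siVPS4B#2. It reached 7558 RPM in siVPS4A+B#1 and 5602 RPM in siVPS4A+B#2. The sum in siVPS4A+B#1 rests on KRT19, at 5122 RPM and called higher than in siCTRL#1 at 1.03 (adjusted p = 4.41e-07), while EPCAM, KRT8, KRT18 and CDH1 had log2 values from -0.34 for CDH1 to -0.02 for EPCAM. KRT19 was also called higher in siVPS4B#1, at 0.72 (adjusted p = 0.000301) and 0.53, not called, against siCTRL#2, while in siCTRL#1 against NT EPCAM was lower at -0.82 (adjusted p = 3.1e-06) and KRT8 higher at 0.66 (adjusted p = 0.00197). That call of KRT8 was lost without siCTRL#1 replicate 3 (0.52) and without replicate 3 of every condition (0.47). None of 4 leukocyte markers was in the table, and of 3 endothelial markers 1 was, PECAM1, at 0.312 RPM in siCTRL#1.

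Combined silencing was followed by higher mRNA of some of the 49 members in all 3 roles. Log2 fold changes were above 1 in each pair for GLA (1.36 and 1.49), the cholesterol exporter NPC1 (1.19 and 1.70) and the protease CTSD (1.19 and 1.02). Further lysosomal genes outside the 49 did not all move this way and are given below. Under siVPS4A+B#1, 18 of 49 members were higher than in siCTRL#1 and 0 were lower, against 10.6% of all 12627 genes higher and 11.5% lower. For the count of 0, limma found 2 members lower at an unadjusted p under 0.05, and edgeR and DESeq2 called 0. Under siVPS4A+B#2, 16 of 49 were higher and 1 was lower, against 12.8% and 15.9% of all genes. The share of members called higher was therefore above that of the whole table in each pair, and the share called lower was below it. A bulk library cannot tell apart fewer cells of a type and less RNA per cell. At any fold, adjusted p under 0.05 was met by 25 members higher and 1 lower in the first pair, against 18.3% and 18.7% of all genes. The second pair had 19 higher and 7 lower by the same rule, against 21.6% and 23.6%. The median log2 fold change of the members was 0.36 in the first pair and 0.27 in the second, beside −0.02 over all genes in each.

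These counts depend in part on how the libraries are scaled. When RPM was scaled by total reads, the median of all genes moved to −0.16 in the first pair and −0.13 in the second. With that scaling the first pair had 11 members higher and 0 lower, and the second pair 11 higher and 4 lower in place of 16 and 1, while the members' medians were 0.19 and 0.14. The shares of all genes called, here and below, are under TMM scaling and do not apply to counts under total-read scaling. The calls lost in the first pair were those of ARSA (0.53), NPC2 (0.53), CD63 (0.43), ATP6V0C (0.43), CLCN7 (0.45), GRN (0.52) and SGSH (0.56), with the log2 value under total-read scaling in parentheses. In the second pair those of ARSA (0.53), ATP6V1A (0.48), TPP1 (0.49), SMPD1 (0.55) and CTNS (0.54) were lost, and LIPA (-0.61), ATP6V1E1 (-0.71) and CTSZ (-0.61) were called lower beside ASAH1.

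**Figure D1:**
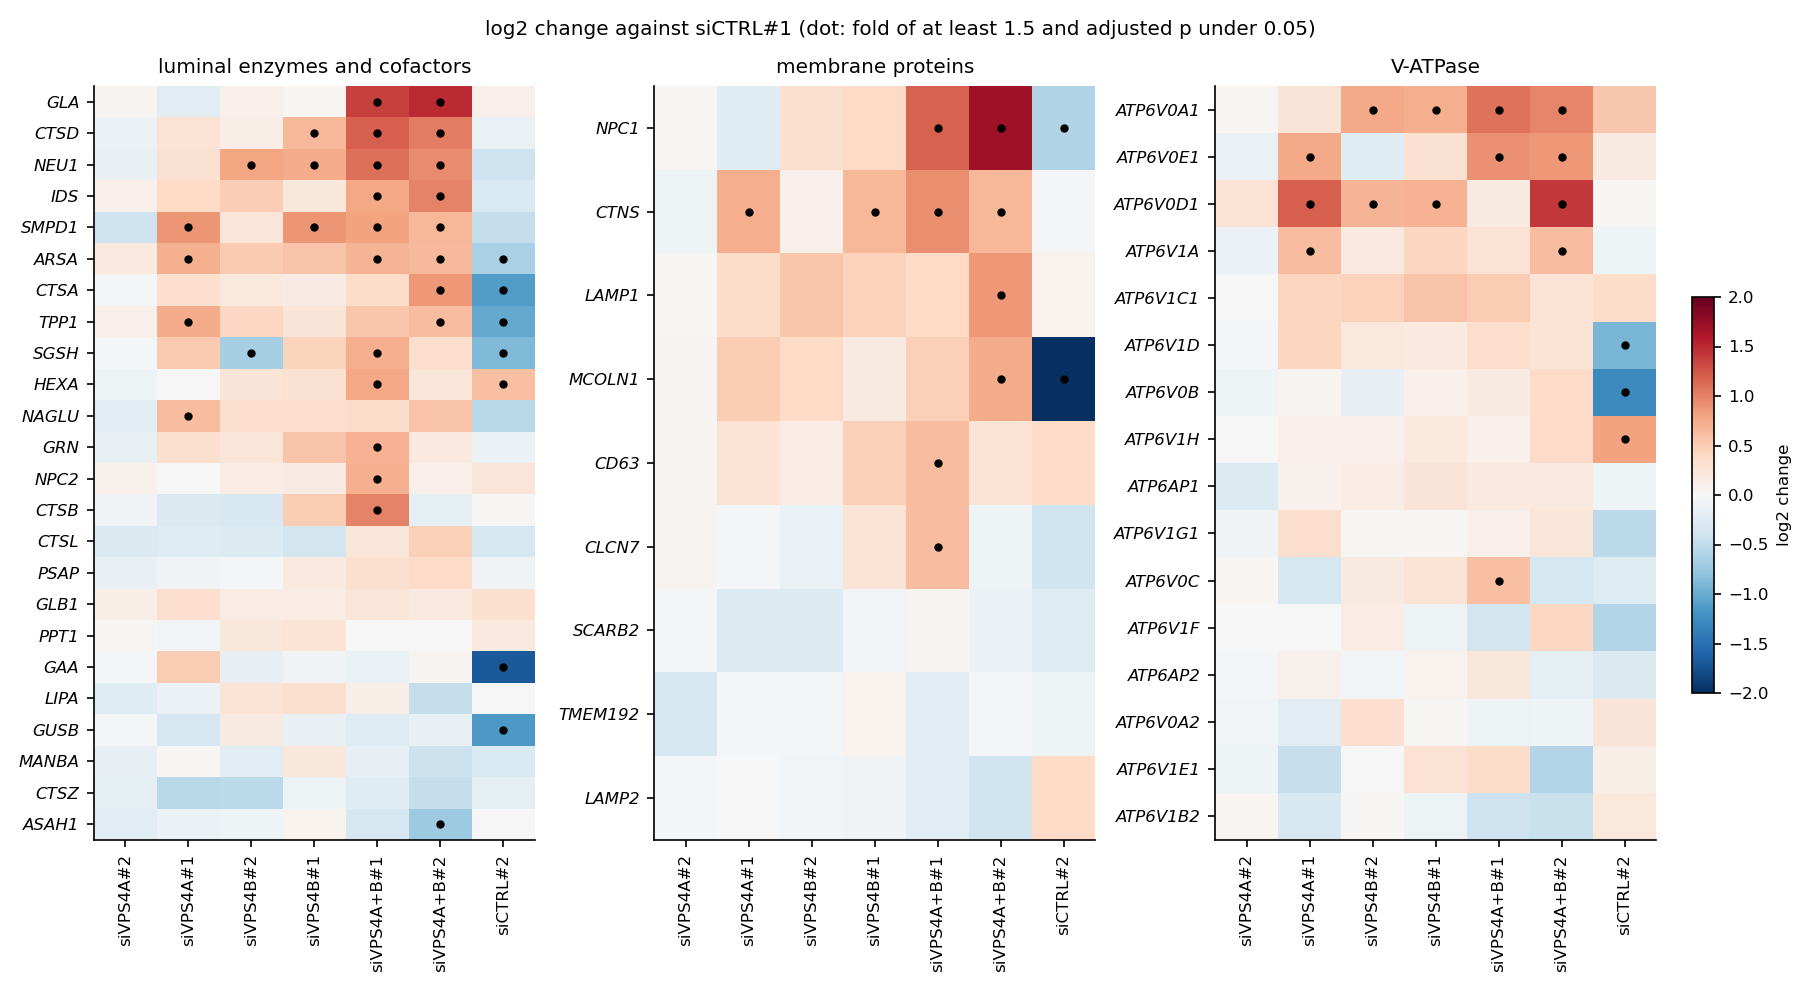
Log2 fold change against siCTRL#1 of the 49 members, grouped by role, in each silencing condition and in siCTRL#2, with colour from −2 to 2 and dots where a member was called. The columns of combined silencing hold 18 members called higher for siVPS4A+B#1 and 16 for siVPS4A+B#2, while siVPS4A#2 holds 0 by limma, edgeR and DESeq2 (1 member higher and 5 lower at an unadjusted p under 0.05).

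Among the luminal enzymes and cofactors, 11 of 24 were higher and 0 lower in the first pair (1 lower at an unadjusted p under 0.05 in limma, 0 in edgeR and DESeq2), with a median log2 fold change of 0.47, or 0.30 under total-read scaling. For the second pair the counts were 8 of 24 higher and 1 lower, with a median of 0.30, or 0.18 under that scaling. The median over all genes under total-read scaling was -0.16 in the first pair and -0.13 in the second. Over all genes 10.6% were higher in the first pair and 12.8% in the second. The largest changes were in GLA, an enzyme that removes terminal galactose from glycolipids, and in the aspartic protease CTSD.

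GLA (NM_000169; chrX:100648261-100663000, minus strand, GRCh37) encodes alpha-galactosidase A, the enzyme lacking in Fabry disease. It measured 19.4, 24.9, 25.7 and 24.7 RPM in NT and 18.7, 20.4, 19.98, 16.7 and 19.4 RPM in siCTRL#1. In siVPS4A+B#1 it measured 47.9, 33.0, 79.5 and 51.0 RPM, and in siVPS4A+B#2 50.2, 66.0, 55.6 and 50.3 RPM. All 8 libraries of combined silencing lay above all 9 of both controls, and the highest value came from replicate 3 of the first pair. The log2 fold change against siCTRL#1 was 1.36 (SE 0.15, adjusted p = 3.4e-09) in the first pair, a fold of 2.58. For the second pair it was 1.49 (SE 0.15, adjusted p = 2.26e-10), a fold of 2.82. Of the 49 members 19 lay with every library of the first pair above every siCTRL#1 library and 1 below, against 11.9% and 11.0% of all genes. For the second pair these were 17 above and 4 below, against 15.1% and 16.3%.

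CTSD (NM_001909; chr11:1773982-1785803, minus strand, GRCh37) encodes cathepsin D, an abundant lysosomal protease. Its level was 327, 277, 379, 296 and 301 RPM in siCTRL#1 and 232, 305, 344 and 272 RPM in NT. The first pair gave 713, 654, 767 and 712 RPM and the second 562, 698, 642 and 629 RPM. Neither pair overlapped with the controls, and the libraries within each pair lay close together. CTSD rose by a log2 of 1.19 (SE 0.14, adjusted p = 5.81e-09) in the first pair and 1.02 (SE 0.14, adjusted p = 9.23e-08) in the second. CTSB (NM_001908; chr8:11700033-11727042, minus strand, GRCh37), the cysteine protease cathepsin B, behaved differently in the pairs. It stood at 316, 281, 230.0, 298 and 265 RPM in siCTRL#1, 533, 562, 506 and 609 RPM in siVPS4A+B#1 and 289, 214, 339.5 and 159 RPM in siVPS4A+B#2. All libraries of the first pair exceeded the controls, whereas those of the second lay on either side of them. CTSB had a log2 fold change of 1.00 (SE 0.15, adjusted p = 1.45e-06) in the first pair and -0.20 (adjusted p = 0.298) in the second, where it turned to 0.05 without siVPS4A+B#2 replicate 4.

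Of the other proteases, CTSA, the protective protein that stabilises NEU1 and GLB1, was higher in the second pair. Its mean was 271 ± 14.7 RPM in siCTRL#1, 355 ± 35.7 RPM in the first pair and 501 ± 12.3 RPM in the second. CTSA had a log2 fold change of 0.87 (adjusted p = 7.07e-07) in the second pair and 0.37 (adjusted p = 0.0229) in the first, below the 1.5-fold limit. TPP1, a tripeptidyl peptidase, was at 143 ± 11.5 RPM in siCTRL#1, 212 ± 12.4 in the first pair and 222 ± 15.9 in the second. It was called in the second pair at 0.62 (adjusted p = 2.24e-05), a call lost without siVPS4A+B#2 replicate 3 (0.58), and not in the first at 0.56 (adjusted p = 0.000159). CTSL and CTSZ, further cysteine proteases, were not called in either pair, with log2 values of 0.24 and 0.48 for CTSL and -0.24 and -0.48 for CTSZ. CTSL was called in the second pair without siVPS4A+B#2 replicate 4, at 0.63. Without replicate 4 of every condition CTSZ was called lower there, at -0.62, and TPP1 was called in the first pair without replicate 1 of every condition, at 0.59.

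The 8-letter motif TCACGTGA is its own reverse complement and contains the 6-letter CACGTG. Of the members with it in their promoter, CTSA, LAMP1 and ATP6V0D1 had the largest mean change over the pairs, and their promoters are printed. The window for CTSA runs from 250 bases before to 50 after the annotated start, from RefSeq on GRCh38.p14 (chr20:45891085-45891384, plus strand), and capitals mark the 8-letter motif.
CTSA: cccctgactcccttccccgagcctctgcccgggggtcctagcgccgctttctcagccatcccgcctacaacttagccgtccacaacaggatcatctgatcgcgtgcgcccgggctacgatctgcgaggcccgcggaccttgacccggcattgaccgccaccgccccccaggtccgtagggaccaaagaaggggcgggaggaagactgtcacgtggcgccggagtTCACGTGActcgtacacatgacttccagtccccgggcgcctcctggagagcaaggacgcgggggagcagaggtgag

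Among the glycosidases, which trim sugar chains, 3 of 8 were higher in the first pair and 2 of 8 in the second, against 10.6% and 12.8% of all genes. NEU1 (NM_000434; chr6:31825436-31830682, minus strand, GRCh37), a sialidase, measured 39.7, 54.4, 55.4 and 55.1 RPM in NT and 69.7, 57.9, 72.5, 72.3 and 58.2 RPM in siCTRL#1. It measured 140.5, 137, 147 and 162 RPM in the first pair and 121, 133, 149.9 and 121 RPM in the second. Every library of combined silencing was above every control library. NEU1 rose by a log2 of 1.10 (SE 0.14, adjusted p = 1.93e-08) in siVPS4A+B#1 and 0.94 (SE 0.14, adjusted p = 2.89e-07) in siVPS4A+B#2. HEXA, the alpha subunit of beta-hexosaminidase, was called in the first pair at 0.78 (adjusted p = 0.00141) and measured 0.24 in the second. The remaining glycosidases GLB1, GAA, GUSB, MANBA and NAGLU were not called, with log2 values between -0.26 and 0.36 in the first pair and between -0.43 and 0.57 in the second. NAGLU lay just under the 1.5-fold limit in the second pair and was called there by edgeR and DESeq2. It was also called without NT replicate 1, siCTRL#1 replicate 1 or 3, siVPS4A#1 replicate 5, siVPS4A+B#1 replicate 1, 3 or 4, siVPS4A+B#2 replicate 2 or 3 or siVPS4B#2 replicate 1, at 0.59 to 0.66.

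The 3 sulfatases, which act on sulfated glycans and lipids, were all called higher in the first pair, against 10.6% of all genes. IDS (NM_000202; chrX:148558519-148602635, minus strand, GRCh37), iduronate sulfatase, measured 169.5, 149.5, 111, 158 and 157 RPM in siCTRL#1, 255, 214, 222 and 304 RPM in the first pair and 310.3, 332, 314 and 217 RPM in the second. The groups did not overlap, and replicate 4 was the lowest of the second pair. Its log2 fold change was 0.77 (SE 0.14, adjusted p = 2.48e-05) and 1.00 (SE 0.14, adjusted p = 1.51e-07). ARSA, arylsulfatase A, is a low gene here, at 3.70 ± 0.874 RPM in siCTRL#1, 6.28 ± 1.61 in the first pair and 6.08 ± 1.48 in the second. ARSA was called in each pair, at 0.68 (adjusted p = 0.012) and 0.64 (adjusted p = 0.0146). Its call in the first pair was lost without siCTRL#1 replicate 1 or siVPS4A+B#1 replicate 2 (0.55 to 0.56), and in the second without siCTRL#1 replicate 1 or 5 or siVPS4A+B#2 replicate 4 (0.51 to 0.58). With the library labelled siVPS4A#1, replicate 2, in the fit, ARSA was called in neither pair, at 0.77 and 0.73. SGSH, a sulfamidase of heparan sulfate breakdown, was called in the first pair at 0.73 (adjusted p = 0.00201), with 0.36 in the second. Without replicate 3 of every condition SGSH stood at 0.57 and was not called.

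Among the lipid hydrolases, SMPD1 was higher in each pair and ASAH1 lower in the second. SMPD1 (chr11:6411670-6416228, plus strand, GRCh37), acid sphingomyelinase, measured 2.42, 3.56, 2.86 and 3.16 RPM in NT and 7.24, 7.10, 9.31, 7.82 and 6.62 RPM in siCTRL#1. It reached 15.3, 13.1, 16.6 and 11.7 RPM in the first pair and 11.5, 10.5, 18.4 and 11.8 RPM in the second. The NT libraries were the lowest, the siCTRL#1 libraries lay above them and those of combined silencing above both. The log2 fold change against siCTRL#1 was 0.80 (SE 0.16, adjusted p = 0.000164) and 0.67 (SE 0.16, adjusted p = 0.000951), and the second call was lost without siVPS4A+B#2 replicate 3 (0.56). ASAH1, acid ceramidase, was the 1 member lower in the second pair and is given by library after its values were seen. It measured 49.0, 49.7, 44.9, 43.7 and 37.3 RPM in siCTRL#1 and 29.6, 22.6, 38.8 and 21.9 RPM in siVPS4A+B#2, where replicate 3 overlapped with the lowest control library. ASAH1 fell by a log2 of 0.73 (SE 0.15, adjusted p = 0.00014), and its value in the first pair was -0.34 (adjusted p = 0.0741). LIPA, acid lipase, measured 0.12 and -0.48, and the thioesterase PPT1 measured 0.00 and −0.00, neither called.

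The cofactors carry lipids in the lumen or assist the hydrolases. GRN, the precursor of granulins, was called in the first pair at 0.70 (adjusted p = 0.000127). NPC2, a cholesterol carrier of the lumen, was called there at 0.71 (adjusted p = 0.000642), but not without siVPS4A+B#1 replicate 3 (0.47). PSAP, the precursor of saposins, was not called in either pair. In the second pair 0 of the 3 cofactors were called higher by limma, edgeR and DESeq2, against 12.8% of all genes in limma. At an unadjusted p under 0.05 limma found 1, and the log2 values were 0.20 for GRN, 0.10 for NPC2 and 0.39 for PSAP.

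**Figure D2:**
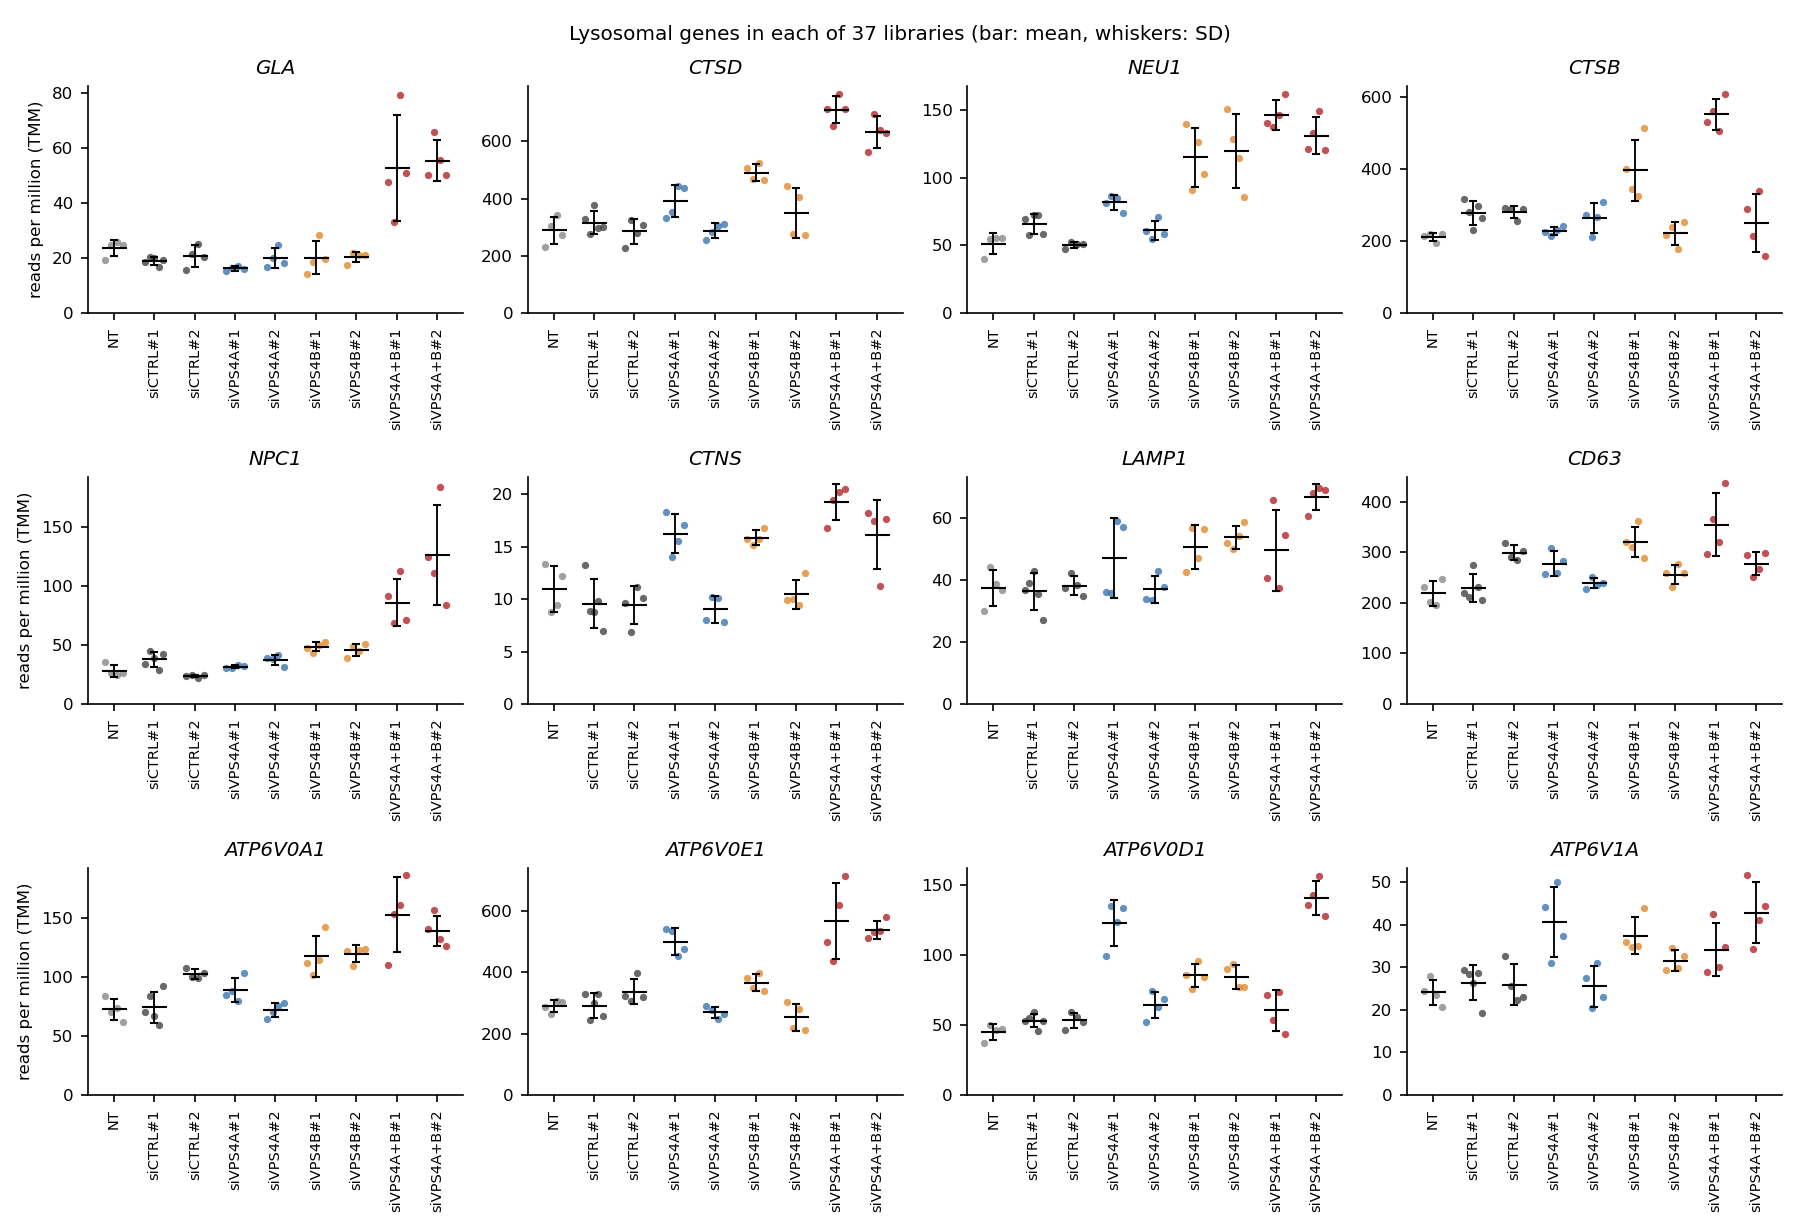
Level in TMM-scaled RPM of 12 members in every library of the 9 conditions, with 1 point per library, bars at the mean and whiskers for the SD. For GLA the libraries of combined silencing lie between 33.0 and 79.5 RPM, above all siCTRL#1 libraries.

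Of the 9 lysosomal membrane proteins, 4 were higher and 0 lower in the first pair, with a median log2 fold change of 0.47, and limma found 0 lower at an unadjusted p under 0.05. The second pair had 4 higher and 0 lower, with a median of 0.27, where limma found 1 lower at an unadjusted p under 0.05. edgeR and DESeq2 called 0 lower in either. Under total-read scaling the medians were 0.30 and 0.14, beside -0.16 and -0.13 over all genes. Of all genes 10.6% were higher in the first pair and 12.8% in the second. The calls lay mostly among transporters and channels, 3 of 4 in each pair, with 1 of 5 structural proteins in each. NPC1, which carries cholesterol out of the lumen, had the largest change of the 9.

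NPC1 (NM_000271; chr18:21086148-21166470, minus strand, GRCh37) measured 35.7, 26.0, 24.6 and 26.5 RPM in NT and 33.5, 45.3, 38.8, 29.0 and 42.3 RPM in siCTRL#1. It measured 91.7, 68.8, 113 and 71.7 RPM in siVPS4A+B#1 and 125, 111, 185 and 83.9 RPM in siVPS4A+B#2. All 8 libraries of combined silencing lay above all control libraries, with replicate 3 the highest in each pair. NPC1 rose by a log2 of 1.19 (SE 0.16, adjusted p = 1.16e-07) in the first pair, a fold of 2.28. It was 1.70 (SE 0.16, adjusted p = 1.82e-11) in the second pair, a fold of 3.26. The difference between the pairs, 0.52 (adjusted p = 0.0139), stayed under 1.5-fold, though it passed that limit without siVPS4A+B#1 replicate 3 or siVPS4A+B#2 replicate 4 (0.64 to 0.67).

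CTNS (chr17:3539753-3566397, plus strand, GRCh37), the cystine exporter, measured 13.3, 8.90, 8.81, 9.85 and 7.00 RPM in siCTRL#1. It measured 16.8, 19.5, 20.3 and 20.52 RPM in the first pair and 18.3, 17.5, 11.2 and 17.7 RPM in the second. The first pair lay above all control libraries, while replicate 3 of the second overlapped with them. Its log2 fold change was 0.93 (SE 0.16, adjusted p = 2.05e-05) and 0.67 (SE 0.16, adjusted p = 0.000983). MCOLN1 (chr19:7587510-7598895, plus strand, GRCh37), a calcium channel of the lysosome, measured 26.3, 28.9, 26.6, 23.0 and 23.7 RPM in siCTRL#1, 34.3, 48.2, 27.9 and 33.1 RPM in the first pair and 49.2, 49.5, 30.9 and 43.9 RPM in the second. The first pair overlapped with siCTRL#1 through its replicate 3, and the second did not overlap. MCOLN1 was called in the second pair at 0.74 (SE 0.16, adjusted p = 0.000232) and not in the first at 0.47 (adjusted p = 0.0195), which passed the 1.5-fold limit without replicate 3 of every condition (0.60) and against siCTRL#2 (2.55), where MCOLN1 stood at -2.08 relative to siCTRL#1. CLCN7, a chloride and proton exchanger, was called in the first pair at 0.62 (adjusted p = 0.0196) and measured -0.08 in the second. The call of CLCN7 was lost without any of siCTRL#1 replicate 1, 4 or 5 or siVPS4A+B#1 replicate 2 or 3 (0.44 to 0.58), and without the replicate block (0.52).

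LAMP1 (chr13:113951554-113977987, plus strand, GRCh37), a heavily glycosylated protein of the lysosomal membrane and a usual marker of it, measured 36.9, 39.1, 43.0, 35.6 and 27.2 RPM in siCTRL#1. It measured 40.7, 65.9, 37.6 and 54.5 RPM in the first pair and 60.7, 68.3, 69.8 and 69.0 RPM in the second. The first pair overlapped with siCTRL#1 and the second lay above it. The log2 fold change was 0.86 (SE 0.15, adjusted p = 8.9e-06) in the second pair and 0.41 (adjusted p = 0.0299) in the first, under 1.5-fold. CD63 (chr12:56119107-56123491, minus strand, GRCh37), a tetraspanin of late endosomes and lysosomes, measured 219.9, 211, 275, 231 and 206 RPM in siCTRL#1, 296, 365, 319.8 and 437 RPM in the first pair and 294, 251, 268 and 298 RPM in the second. Here it was the first pair that lay above the controls and the second that overlapped. CD63 was called in the first pair at 0.61 (SE 0.12, adjusted p = 5.16e-05), a call lost without any of siCTRL#1 replicate 5 or siVPS4A+B#1 replicate 2 or 4 (0.52 to 0.58), and measured 0.27 (adjusted p = 0.0519) in the second. Against siCTRL#2, chosen as a control after seeing the data, CD63 stood at 0.23 and -0.11, not called. LAMP2, SCARB2 and TMEM192 were not called, with log2 values from -0.22 to 0.05 in the first pair and from -0.40 to -0.03 in the second.

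The promoter of LAMP1 (RefSeq, GRCh38.p14, chr13:113296989-113297288, plus strand) is shown next, with CACGTG at 6 places in the window, 2 of which lie within TCACGTGA. Capitals mark the 8-letter motif.
LAMP1: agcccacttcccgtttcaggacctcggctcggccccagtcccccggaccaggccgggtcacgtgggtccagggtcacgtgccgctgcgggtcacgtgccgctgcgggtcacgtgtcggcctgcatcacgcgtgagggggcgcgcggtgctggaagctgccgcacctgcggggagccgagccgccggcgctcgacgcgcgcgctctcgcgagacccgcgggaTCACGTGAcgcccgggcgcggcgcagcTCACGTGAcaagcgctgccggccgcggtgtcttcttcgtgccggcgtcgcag

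Among the 16 V-ATPase genes, 3 were higher and 0 lower in the first pair, beside 10.6% of all genes higher, with a median log2 fold change of 0.21. The second pair had 4 higher and 0 lower, beside 12.8% higher, with a median of 0.27. Under total-read scaling the medians were 0.031 and 0.14, beside -0.16 and -0.13 over all genes. For the zeros, limma found 1 lower in the first pair and 3 in the second at an unadjusted p under 0.05, DESeq2 called 0 in each, and edgeR called 0 in the first and 1, ATP6V1E1, in the second. Of the 6 subunits of V0, the proton-conducting sector, 3 were higher in each pair. Of the 8 subunits of V1, 1 was higher in the second pair, a share close to that of all genes, and 0 in the first, where limma found 3 higher at an unadjusted p under 0.05 and edgeR and DESeq2 called 0.

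ATP6V0A1 (chr17:40610862-40674600, plus strand, GRCh37), a form of the large V0 subunit that helps to direct the pump to its membrane, measured 84.2, 70.3, 74.2 and 62.1 RPM in NT and 70.4, 83.6, 67.1, 59.2 and 92.2 RPM in siCTRL#1. It measured 110.2, 154, 162 and 186 RPM in the first pair and 141, 157, 133 and 127 RPM in the second. All libraries of combined silencing were above those of both controls. ATP6V0A1 rose by a log2 of 1.09 (SE 0.13, adjusted p = 1.11e-08) and 0.98 (SE 0.13, adjusted p = 6.51e-08). In siCTRL#2, however, ATP6V0A1 measured 108, 99.8, 99.1 and 103 RPM, above all siCTRL#1 libraries. With siCTRL#2 as the control, chosen after seeing the data, it was not called, at 0.55 and 0.43.

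ATP6V0E1 (chr5:172410774-172462448, plus strand, GRCh37), a small V0 subunit, measured 328, 244, 298, 329 and 257 RPM in siCTRL#1, 498, 436, 619 and 714 RPM in siVPS4A+B#1 and 510.3, 531, 535 and 579.8 RPM in siVPS4A+B#2. Neither pair overlapped with siCTRL#1, and the first pair spread more widely than the second. Its log2 fold change was 0.92 (SE 0.12, adjusted p = 1.13e-07) and 0.87 (SE 0.12, adjusted p = 1.96e-07). ATP6V0D1 (chr16:67471917-67515084, minus strand, GRCh37), a V0 subunit on the cytosolic side of the membrane, measured 52.4, 54.7, 58.9, 45.9 and 52.4 RPM in siCTRL#1, 71.3, 53.1, 73.3 and 43.4 RPM in the first pair and 136, 142, 156 and 127 RPM in the second. The first pair overlapped with the control, whereas every library of the second was far above it. The log2 fold change was 1.41 (SE 0.13, adjusted p = 2.29e-11) in the second pair, and 0.17 (adjusted p = 0.322) in the first, which turned to −0.00 under total-read scaling. ATP6V0C, the subunit that forms the proton-carrying ring and has processed pseudogenes that could share its reads, was called in the first pair at 0.61 (adjusted p = 0.00122). That call was lost without siCTRL#1 replicate 2 or 5 or siVPS4A+B#1 replicate 2 (0.52 to 0.57), and its value in the second pair was -0.35. ATP6V0A2 and ATP6V0B were not called, at -0.10 and 0.17 in the first pair and -0.09 and 0.38 in the second.

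The promoter of ATP6V0D1 (RefSeq, GRCh38.p14, chr16:67481108-67481407, minus strand) holds TCACGTGA, again in capitals, 60 bases before the start.
ATP6V0D1: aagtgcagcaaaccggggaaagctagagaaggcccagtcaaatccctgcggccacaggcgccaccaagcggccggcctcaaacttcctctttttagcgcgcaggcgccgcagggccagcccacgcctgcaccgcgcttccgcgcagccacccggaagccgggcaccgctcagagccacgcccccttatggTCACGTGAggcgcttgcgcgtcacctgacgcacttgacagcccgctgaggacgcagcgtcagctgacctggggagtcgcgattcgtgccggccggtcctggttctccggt

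Of the V1 subunits, ATP6V1A (chr3:113465617-113530903, plus strand, GRCh37), which holds the catalytic site for ATP, measured 29.3, 28.4, 26.4, 28.7 and 19.3 RPM in siCTRL#1, 28.8, 42.6, 30.2 and 34.9 RPM in the first pair and 51.8, 34.4, 41.2 and 44.4 RPM in the second. The second pair lay above siCTRL#1 and the first overlapped with it. The log2 fold change was 0.29 (adjusted p = 0.134) in the first pair and 0.61 (SE 0.15, adjusted p = 0.00103) in the second, a call lost without siCTRL#1 replicate 5 or siVPS4A+B#2 replicate 1 (0.55 to 0.56). ATP6V1E1, part of the stalk that holds V1 to V0, measured 227 ± 17.6 RPM in siCTRL#1, 295 ± 36.1 RPM in the first pair and 153 ± 10.2 RPM in the second. Its log2 value in the second pair, -0.58 (adjusted p = 7.29e-05), stopped just short of 1.5-fold and passed it without siCTRL#1 replicate 2, 4 or 5, siVPS4A#1 replicate 3 or 5, siVPS4A#2 replicate 3, siVPS4A+B#2 replicate 4 or siVPS4B#2 replicate 3 (-0.61 to -0.59). The count of members lower in that pair then became 2 in place of 1. ATP6V1B2, ATP6V1C1, ATP6V1D, ATP6V1F, ATP6V1G1 and ATP6V1H were not called, with log2 values from -0.41 to 0.51 in the first pair and from -0.45 to 0.41 in the second. ATP6V1F was called in the second pair without siCTRL#1 replicate 1, at 0.63. The accessory proteins ATP6AP1 and ATP6AP2 measured 0.20 and 0.22 in the first pair and 0.19 and -0.18 in the second, none of which was called.

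A stricter count asked for a call in the same direction in each pair against NT and against siCTRL#1. The 4 comparisons share their libraries, so they are not independent of each other. There were 9 of 49 members higher in all 4, against 3.96% of all genes. These were ARSA, CTSD, GLA, IDS, NEU1 and SMPD1 of the lumen, NPC1 of the membrane, and ATP6V0A1 and ATP6V0E1 of the V-ATPase. No member was lower in all 4 by limma, edgeR or DESeq2, or in limma at an unadjusted p under 0.05, against 4.16% of all genes. edgeR called 9 members and DESeq2 10, the added one being CTNS, and total-read scaling left 7, without ARSA and SMPD1. ARSA also dropped out, leaving 8, without siCTRL#1 replicate 1, siCTRL#1 replicate 5, siVPS4A+B#1 replicate 2 or siVPS4A+B#2 replicate 4. The fibroblast marker COL1A1 was called higher against NT in each pair, at 1.34 and 2.25, and its part in these calls was not tested.

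Silencing VPS4A with siVPS4A#1 was followed by higher levels of 8 members, among them subunits of V0 and lipid and peptide hydrolases, whereas siVPS4A#2 changed none against siCTRL#1 by the test. In siVPS4A#1, 8 of 49 members were higher and 0 lower, against 9.57% and 12.5% of all genes. For that count of 0, limma found 6 lower at an unadjusted p under 0.05, and edgeR and DESeq2 called 0. In siVPS4A#2, limma called 0 members higher and 0 lower, against 0.0396% and 0.0475% of all genes, which are 5 and 6 genes. At an unadjusted p under 0.05 there were 1 higher and 5 lower, and edgeR and DESeq2 called 0. With siCTRL#2 as the control, chosen after seeing the data, siVPS4A#2 had 11 members higher and 2 lower, against 11.1% and 6.15% of all genes. The members' median log2 fold change was 0.09 in siVPS4A#1. It lay between 0.13 and 0.18 without siCTRL#1 replicate 1 or 5 or siVPS4A#1 replicate 3, 4 or 5, without replicate 3 or 5 of every condition, with the left-out library or under total-read scaling. In siVPS4A#2 it was −0.04, and between −0.068 and −0.018 without siCTRL#1 replicate 1 or 3, without replicate 1 or 4 of every condition or under total-read scaling.

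The V0 subunit ATP6V0D1 had the largest change in siVPS4A#1, with 99.2, 135, 123 and 133 RPM and a log2 fold change of 1.20 (SE 0.13, adjusted p = 7.37e-10). In siVPS4A#2 it measured 51.8, 73.8, 62.8 and 68.7 RPM, a log2 fold change of 0.28. ATP6V0E1 measured 539.8, 534, 451 and 474 RPM in siVPS4A#1 and rose by a log2 of 0.76 (SE 0.12, adjusted p = 2.41e-06), against -0.13 in siVPS4A#2. All 4 libraries of siVPS4A#1 exceeded every siCTRL#1 library for each of these subunits. Against siCTRL#2 the call of ATP6V0E1 in siVPS4A#1 was lost, at 0.57. SMPD1 rose by 0.89 (adjusted p = 2.46e-05), TPP1 by 0.73 (adjusted p = 1.39e-06) and CTNS by 0.72 (adjusted p = 0.000431) on the log2 scale in siVPS4A#1. The other calls there were smaller and rested on single libraries. ARSA, at 0.70 (adjusted p = 0.00804), lost its call without siCTRL#1 replicate 5 or siVPS4A#1 replicate 5 (0.60 to 0.61). NAGLU, at 0.62 (adjusted p = 0.00832), lost it without siCTRL#1 replicate 2 or siVPS4A#1 replicate 3 (0.53 to 0.57). ATP6V1A, at 0.61 (adjusted p = 0.00107), lost it without siCTRL#1 replicate 5 or siVPS4A#1 replicate 4 or 5 (0.53 to 0.56). Calls were gained by GAA without siCTRL#1 replicate 2 or siVPS4A#1 replicate 1 (0.59 to 0.70), by SGSH without siVPS4A#1 replicate 3 (0.65) and, as lower, by CTSZ without siCTRL#1 replicate 4 or siVPS4A#1 replicate 4 (-0.64 to -0.59). With the library labelled siVPS4A#1, replicate 2, included, ARSA stood at 0.12 and ATP6V1A at 0.52, neither called, and SGSH was called at 0.66.

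A marker of another cell type moved along with these conditions. Of 3 fibroblast markers 1 was in the table, COL1A1, at a mean of 12.4 RPM in NT, 26.0 in siCTRL#1, 23.0 in siCTRL#2, 47.0 in siVPS4A#1, 23.8 in siVPS4A#2, 31.4 in siVPS4B#1 and 28.3 in siVPS4B#2. It averaged 32.8 RPM in siVPS4A+B#1 and 62.6 RPM in siVPS4A+B#2. COL1A1 was called higher in siVPS4A#1 at 0.84 (adjusted p = 0.00149) and in siVPS4A+B#2 at 1.33 (adjusted p = 2.86e-06), the conditions that contain the duplex siVPS4A#1. Without siVPS4A+B#1 replicate 4 it was called in siVPS4A+B#1 as well (0.64). Against NT, COL1A1 was called higher in siCTRL#1, at 0.92 (adjusted p = 0.00242), and in each of the 6 silencing conditions, from 0.87 in siVPS4A#2 to 2.25 in siVPS4A+B#2. The call in siCTRL#1 was lost without replicate 1 of every condition (0.74) and that in siVPS4A#2 without its replicate 4 (0.68). Its part in the changes of the lysosomal genes was not tested.

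Silencing VPS4B alone gave 6 calls with siVPS4B#1 and 4 with siVPS4B#2, and NEU1, ATP6V0A1 and ATP6V0D1 were called with each duplex. In siVPS4B#1, 6 of 49 members were higher and 0 lower, against 5.61% and 7.33% of all genes. For the count of 0, limma found 1 lower at an unadjusted p under 0.05, and edgeR and DESeq2 called 0. In siVPS4B#2, 3 were higher and 1 lower, against 3.01% and 4.56% of all genes. The members' median log2 fold change was 0.26 and 0.15, beside 0.00 over all genes in each.

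NEU1 measured 139.8, 91.2, 127 and 103 RPM in siVPS4B#1 and 151, 129, 114 and 85.5 RPM in siVPS4B#2. All 8 of these libraries lay above the siCTRL#1 libraries, with log2 fold changes of 0.74 (adjusted p = 6.51e-05) and 0.79 (adjusted p = 8.35e-05). ATP6V0A1 measured 112, 102, 114 and 143 RPM in siVPS4B#1 and 123, 109, 123 and 124 RPM in siVPS4B#2, again without overlap, and rose by 0.73 and 0.76. ATP6V0D1 rose by 0.69 (adjusted p = 0.000115) in siVPS4B#1 and 0.68 (adjusted p = 0.000459) in siVPS4B#2. These 3 genes were called higher with each VPS4B duplex against both NT and siCTRL#1, against 0.483% of all genes. In siVPS4B#1 the further calls were SMPD1 at 0.88 (adjusted p = 0.000101), CTNS at 0.66 (adjusted p = 0.00251) and CTSD at 0.66 (adjusted p = 0.000392). Without replicate 4 of every condition the call of ATP6V0A1 in siVPS4B#1 was lost (0.56). Against siCTRL#2, ATP6V0A1 was called with neither duplex, at 0.19 and 0.22. SGSH was lower in siVPS4B#2 at -0.66 (adjusted p = 0.0139), a call lost without siVPS4B#2 replicate 1 or 3 (-0.57 to -0.54), and turned to 0.22 against siCTRL#2. Calls were gained in siVPS4B#1 by ATP6V1C1 without siCTRL#1 replicate 2, siVPS4A#1 replicate 1, siVPS4A#2 replicate 3, siVPS4B#1 replicate 1 or 3 or siVPS4B#2 replicate 3 (0.59 to 0.62), by GRN without siCTRL#1 replicate 2 or 3 or siVPS4B#1 replicate 2 or 4 (0.59 to 0.67) and by ARSA without siCTRL#1 replicate 2 or siVPS4B#1 replicate 4 (0.67 to 0.75). In siVPS4B#2 they were gained by LAMP1 without siCTRL#1 replicate 1 or 3 or siVPS4B#2 replicate 2 (0.61 to 0.64), by CTSZ, as lower, without siCTRL#1 replicate 4 or siVPS4B#2 replicate 3 (-0.62 to -0.61) or without the replicate block (-0.59), and by IDS without siVPS4B#2 replicate 4 (0.60).

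An endothelial marker moved with siVPS4B#1. PECAM1, at 0.312 RPM in siCTRL#1, averaged 0.652 RPM in NT, 1.04 in siCTRL#2, 0.294 in siVPS4A#1, 0.378 in siVPS4A#2, 1.41 in siVPS4B#1 and 0.301 in siVPS4B#2. In combined silencing PECAM1 averaged 0.870 RPM in the first pair and 0.286 RPM in the second. It was called higher than in siCTRL#1 in siVPS4B#1, at 0.85 (adjusted p = 0.00119), and in siCTRL#2, at 0.62 (adjusted p = 0.0147), from 5 to 18 reads per library in siVPS4B#1 and 1 to 4 in siCTRL#1. Against siCTRL#2 PECAM1 measured 0.23 in siVPS4B#1, not called. The call in siCTRL#2 was lost without siCTRL#1 replicate 3 or siCTRL#2 replicate 3 (0.53 to 0.56), and 1 was gained in siVPS4A+B#1 without its replicate 4 (0.60). The part of PECAM1 in the changes of the lysosomal genes was not tested.

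Whether combined silencing differed from the sum of the single ones was tested as an interaction, the log2 change of the pair minus the log2 changes of its 2 duplexes given singly. With siCTRL#1 as the control, GLA, NPC1, CTSL and CTSD had positive interactions in each pair. In the first pair 5 members had a positive interaction and 1 a negative one, against 3.82% and 2.38% of all genes. The second pair had 5 positive and 2 negative, against 9.64% and 8.63% of all genes, so there the share of positive calls was close to that of all genes and the share of negative ones below it. Both interactions are computed against the same siCTRL#1 libraries, and none is given here against siCTRL#2. With siCTRL#2 as the control, each would shift by that gene's log2 difference of siCTRL#2 from siCTRL#1. That difference was -0.61 for NPC1, -0.36 for CTSL, -0.14 for CTSD and 0.10 for GLA. With total-read scaling the first pair had 3 positive and 1 negative, the calls of CTSD (0.53) and NPC1 (0.64) being lost. The second pair then had 3 positive and 5 negative in place of 5 and 2, since CTSD (0.45) and CTSZ (0.46) were not called and ASAH1 (-0.66), ATP6V0D1 (-0.61) and TPP1 (-0.67) were.

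GLA was not called with any single duplex, at 16.2 ± 0.831 RPM in siVPS4A#1, 19.9 ± 3.57 in siVPS4A#2, 20.1 ± 5.89 in siVPS4B#1 and 20.4 ± 1.98 in siVPS4B#2, with 19.0 ± 1.49 in siCTRL#1. Its interaction was 1.26 (SE 0.22, adjusted p = 0.00015) in the first pair and 1.62 (SE 0.22, adjusted p = 7.06e-07) in the second. NPC1 stood at 31.5 ± 1.28, 37.5 ± 4.21, 48.7 ± 4.00 and 46.1 ± 5.05 RPM in the same conditions, none of them called. The NPC1 interaction was 0.76 (SE 0.23, adjusted p = 0.0338) in the first pair and 1.63 (SE 0.22, adjusted p = 9.4e-07) in the second. CTSL had log2 values against siCTRL#1 of -0.26, -0.29, -0.37 and -0.27 in the single silencings, none called. In the control siCTRL#2 CTSL was similarly low against siCTRL#1, at -0.36 (adjusted p = 0.0449 in limma), also not called. Although it was not called in combined silencing either, its interaction was 0.90 (SE 0.20, adjusted p = 0.00264) in the first pair and 1.01 (SE 0.19, adjusted p = 0.000182) in the second. For CTSD the interaction was 0.65 (adjusted p = 0.0389) and 0.59 (adjusted p = 0.0278). The second of these fell short of the 1.5-fold limit in edgeR (0.56), in DESeq2 (0.56) and without the replicate block (0.58).

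ATP6V0E1 had an interaction of 0.74 (adjusted p = 0.00561) in the first pair and 0.35 (adjusted p = 0.154) in the second, which was not called. ATP6V0D1 went the other way, since its pair value in siVPS4A+B#1 was below the sum of its single changes, with an interaction of -0.81 (adjusted p = 0.0052). ATP6V0D1 then measured -0.47 (adjusted p = 0.07) in the second pair. The other calls of the second pair were CTSZ at 0.61 (adjusted p = 0.00916), which was lost without the replicate block (0.57), ATP6V1C1 at -0.62 (adjusted p = 0.0121) and LIPA at -0.64 (adjusted p = 0.00516).

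Several of these interactions depended on single libraries. In the first pair CTSD lost its call without any of siCTRL#1 replicate 1 or 3, siVPS4A#2 replicate 1, 2 or 3, siVPS4A+B#1 replicate 1, 3 or 4 or siVPS4B#1 replicate 2, 3 or 4 (0.59 to 0.65). NPC1 lost it there without any of siCTRL#1 replicate 2, siVPS4A#2 replicate 3 or 4, siVPS4A+B#1 replicate 1 or 3 or siVPS4B#1 replicate 1, 2 or 3 (0.65 to 0.76). In the second pair CTSD lost its call without any of NT replicate 1, siCTRL#1 replicate 1 or 3, siVPS4A#1 replicate 1 or 3, siVPS4A#2 replicate 3, siVPS4A+B#1 replicate 1, 3 or 4, siVPS4A+B#2 replicate 2 or siVPS4B#2 replicate 2 or 4 (0.48 to 0.57). The calls of CTSZ ended without any of siCTRL#1 replicate 2 or 3, siVPS4A#1 replicate 3, siVPS4A#2 replicate 3, siVPS4A+B#1 replicate 1 or 3, siVPS4A+B#2 replicate 4 or siVPS4B#2 replicate 2 (0.51 to 0.58). ATP6V1C1 was not called without siCTRL#1 replicate 4, siVPS4A#1 replicate 1, siVPS4A+B#2 replicate 3 or siVPS4B#2 replicate 4 (-0.58 to -0.53), nor LIPA without siVPS4A+B#2 replicate 3 (-0.58). TPP1 gained a call without siVPS4A#1 replicate 1 or 3, siVPS4A+B#2 replicate 3 or siVPS4B#2 replicate 3 (-0.62 to -0.59), ASAH1 without siVPS4A+B#2 replicate 3 (-0.69) and CTSB without siVPS4A+B#2 replicate 4 (0.68). When the library labelled siVPS4A#1, replicate 2, was included, the first pair had 3 members with an interaction, GLA, CTSL and ATP6V0E1, in place of 6. There ATP6V0D1 (-0.83), CTSD (0.68) and NPC1 (0.82) lost their calls by adjusted p, although their values were no smaller in size. In the second pair CTSD (0.47) and ATP6V1C1 (-0.56) lost their calls. The first pair also had 3 without replicate 3 of every condition, GLA, CTSL and ATP6V0D1, and 3 without replicate 4, GLA, CTSL and NPC1. ATP6V0E1 was then at 0.68 and 0.53, and ATP6V0D1 at -0.58 without replicate 4.

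**Figure D3:**
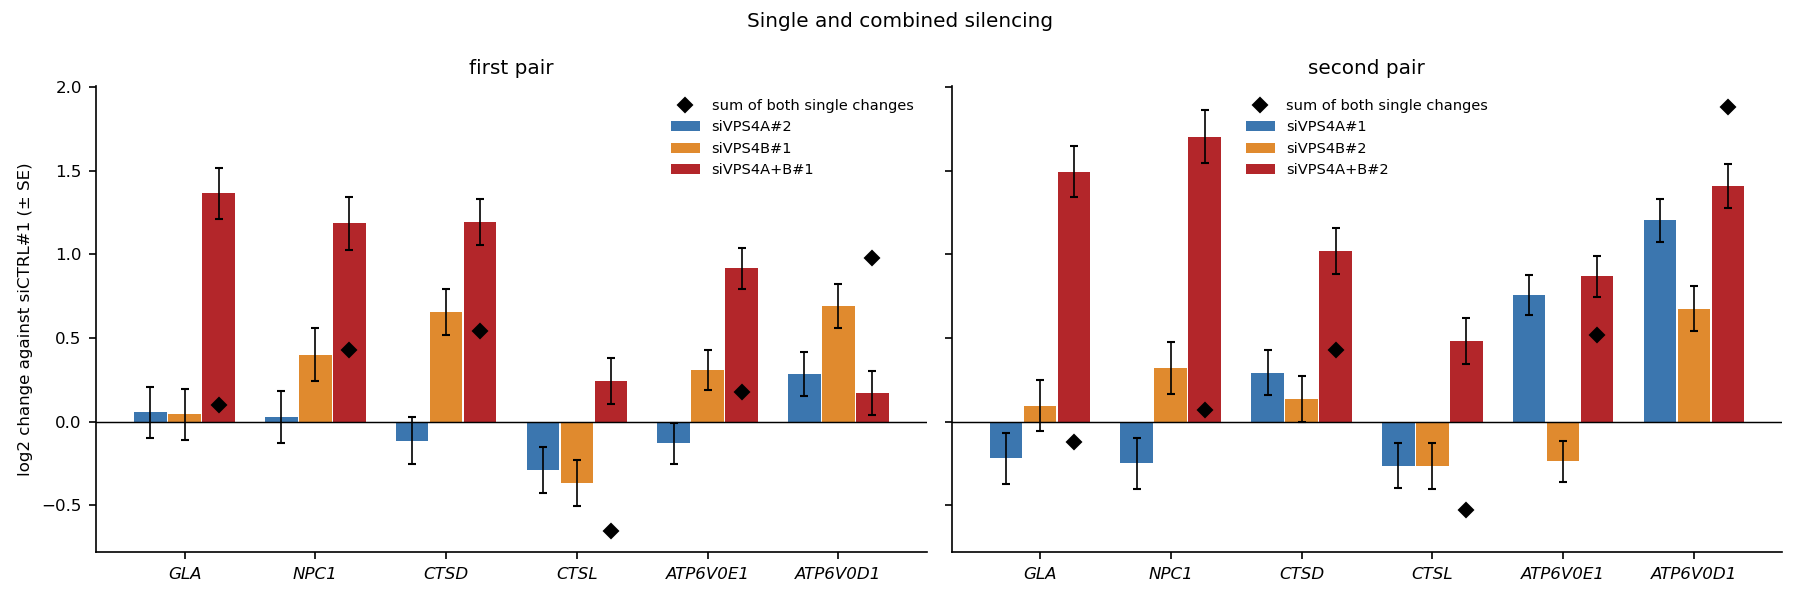
Log2 fold change against siCTRL#1 of GLA, NPC1, CTSD, CTSL, ATP6V0E1 and ATP6V0D1 for each duplex alone and for the pair, with whiskers for the SE and diamonds at the sum of both single changes. For GLA the pairs reach 1.36 and 1.49, with single changes between -0.22 and 0.10.

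The pairs were also compared with each other. They differ both in the duplexes used and in how far each gene was silenced, which cannot be told apart here. ATP6V0D1 and CTSB differed most. In siVPS4A+B#2 against siVPS4A+B#1, 2 of 49 members were higher and 6 lower, against 7.53% and 9.92% of all genes. ATP6V0D1 was higher by 1.24 (SE 0.14, adjusted p = 2.8e-09) and ATP6V1F by 0.77 (adjusted p = 0.00625). The call of ATP6V1F ended without replicate 2 or replicate 4 of every condition (0.57 and 0.61). CTSB was lower, at -1.20 (SE 0.16, adjusted p = 1.15e-07), as were ATP6V0C at -0.95 (adjusted p = 5.59e-06) and ATP6V1E1 at -0.94 (adjusted p = 5.57e-08). CLCN7, at -0.70 (adjusted p = 0.0135), was not called without siVPS4A+B#1 replicate 3 or siVPS4A+B#2 replicate 1 or 3 (-0.60 to -0.55). NPC2, at -0.61 (adjusted p = 0.00486), was not called without siVPS4A+B#1 replicate 3 or siVPS4A+B#2 replicate 3 (-0.49 to -0.35). LIPA, at -0.60 (adjusted p = 0.000184), was not called without siVPS4A+B#1 replicate 3 or 4 or siVPS4A+B#2 replicate 3 (-0.56 to -0.50). Under total-read scaling the calls of NPC2 (-0.57) and LIPA (-0.56) were lost. The count was 5 in place of 8 without siVPS4A+B#2 replicate 3. HEXA was called lower without siVPS4A+B#1 replicate 2 or siVPS4A+B#2 replicate 2 (-0.70 to -0.67) and CTSA higher without siVPS4A+B#1 replicate 1 (0.62).

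The control conditions were compared with each other as well. In siCTRL#1, 3 of 49 members were higher than in NT and 0 lower, against 4.84% and 4.21% of all genes, so the share of members called higher was close to that of all genes. limma found 0 lower at an unadjusted p under 0.05, and edgeR and DESeq2 called 0. SMPD1 was higher by a log2 of 1.12 (SE 0.16, adjusted p = 5.82e-06), CTSA by 0.71 (adjusted p = 0.000154) and ATP6V0B by 0.67 (adjusted p = 0.0075). Without NT replicate 1 there was 1 call, SMPD1, with CTSA at 0.56 and ATP6V0B at 0.55. ATP6V0B also lost its call without siCTRL#1 replicate 4 (0.54) and without replicate 1 (0.55) or replicate 3 (0.60) of every condition. Without siCTRL#1 replicate 2 there were 5 calls, with ATP6V1G1 (0.59) and CLCN7 (-0.59) added. The fibroblast marker COL1A1 was higher as well, at 0.92, a call lost without replicate 1 of every condition (0.74).

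Relative to siCTRL#1, 2 of 49 members were higher and 10 lower in siCTRL#2, against 5.84% and 11.0% of all genes. MCOLN1 measured 5.91, 5.73, 4.67 and 4.47 RPM in siCTRL#2, where siCTRL#1 had 25.7 ± 2.35 RPM, and fell by a log2 of 2.08 (SE 0.16, adjusted p = 4.05e-13). All 4 libraries of siCTRL#2 lay below every library of the other conditions. GAA, acid alpha-glucosidase, was lower at -1.69 (adjusted p = 6.16e-10). ATP6V0B, GUSB, CTSA, TPP1, ATP6V1D, SGSH, ARSA and NPC1 were lower by log2 values from -1.28 to -0.61. ATP6V1H and HEXA were higher, at 0.80 and 0.61. NPC1 lost its call without siCTRL#1 replicate 2 or siCTRL#2 replicate 3 (-0.53 to -0.50). ARSA lost it without siCTRL#1 replicate 2, 3 or 4 or siCTRL#2 replicate 2 or 3 (-0.61 to -0.49). HEXA lost it without siCTRL#1 replicate 2 or 3 or siCTRL#2 replicate 1 or 3 (0.50 to 0.56), and under total-read scaling (0.57). Under that scaling 1 member was higher and 12 lower, with NAGLU (-0.60) and ATP6V1F (-0.60) added as lower. edgeR and DESeq2 also called 12 lower, with NAGLU and ATP6V1F added. NAGLU further gained a call as lower without siCTRL#1 replicate 2 or 4 or siCTRL#2 replicate 1 or 3 (-0.74 to -0.59), and ATP6V1G1 without siCTRL#1 replicate 2 or siCTRL#2 replicate 2 or 4 (-0.69 to -0.60). ATP6V1F gained one as lower without siCTRL#1 replicate 2, 4 or 5, siCTRL#2 replicate 2 or siVPS4A#1 replicate 3, 4 or 5 (-0.74 to -0.59) or the replicate block (-0.60), and ATP6V0A1 as higher without siCTRL#1 replicate 2 (0.62).

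With siCTRL#2 in place of siCTRL#1 as the control the counts of members were larger, except for the 1 lower in siVPS4B#2. The counts over all genes were larger as well in these comparisons. In the first pair 24 of 49 members were then higher and 3 lower, against 15.0% and 11.9% of all genes, and in the second 24 and 4, against 16.6% and 16.0%. The lower members were ATP6V1B2, ATP6V1H and LAMP2 in the first pair (-0.69 to -0.62) and ASAH1, ATP6V1B2, ATP6V1E1 and LAMP2 in the second (-0.80 to -0.66). Calls against siCTRL#1 that were not made against siCTRL#2 were those of ATP6V0A1 in each pair and of CD63, HEXA (0.17) and NPC2 (0.47) in the first. For single silencing there were 18 higher and 3 lower in siVPS4A#1, against 15.3% and 14.6% of all genes. For siVPS4B#1 there were 18 higher and 1 lower, against 13.1% and 9.24%, and for siVPS4B#2 15 and 1, against 12.3% and 8.93%.

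The members' median moved in the same direction in each replicate number of combined silencing. In siVPS4A+B#1 it was 0.37, 0.42, 0.26 and 0.46 for replicates 1 to 4, each taken against siCTRL#1 of the same number, and in siVPS4A+B#2 it was 0.27, 0.26, 0.22 and 0.28. The luminal genes varied little in the first pair, with 0.47, 0.47, 0.48 and 0.40, and more in the second, with 0.28, 0.27, 0.55 and 0.15. The membrane genes varied most, with 0.32, 0.59, 0.075 and 0.60 in the first pair and 0.42, 0.25, 0.033 and 0.78 in the second. Their lowest value was in replicate 3 of each pair. The V-ATPase genes lay between 0.12 and 0.33 in the first pair and between 0.14 and 0.32 in the second. With the log2 value above 0 there were 39 of 49 members in the first pair and 33 in the second, 31 in siVPS4A#1, 18 in siVPS4A#2, 41 in siVPS4B#1 and 34 in siVPS4B#2, beside 47.8% to 51.1% of all genes in these 6 comparisons.

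**Figure D4:**
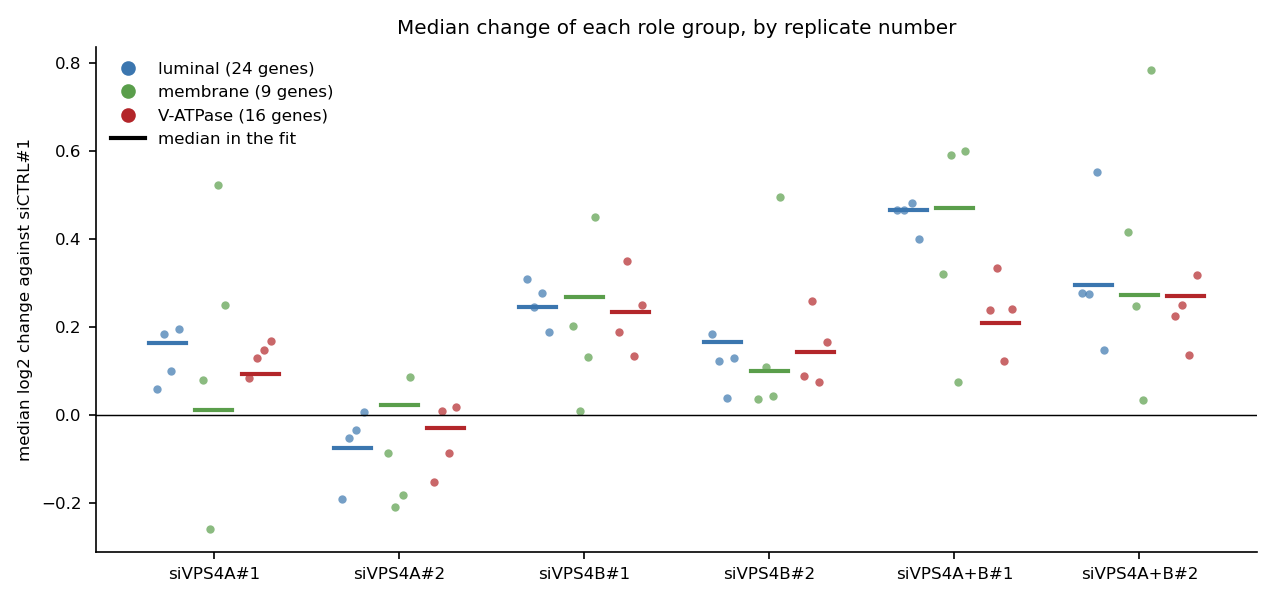
Median log2 difference from siCTRL#1 of the luminal, membrane and V-ATPase members in the 6 silencing conditions, with 1 point per replicate number and a bar for the median of the fitted values. Luminal members of siVPS4A+B#1 lie between 0.40 and 0.48 in the 4 replicates.

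Other lysosomal genes, listed by function, place the 49 members in context. Their counts stand beside 10.6% of all genes higher and 11.5% lower in the first pair, and 12.8% and 15.9% in the second, and 1 call in a list of 7 or more lies near or below those shares. Of 29 further luminal proteins 25 were in the table, with 1 higher and 2 lower in the first pair and 4 higher and 8 lower in the second. SIAE, a sialate esterase, was lower at -0.76 (adjusted p = 1.84e-05) and -1.13 (adjusted p = 6.77e-09). With siCTRL#2 as the control SIAE was not called in the first pair, at -0.47. GGH, a folate hydrolase, was lower in the second pair at -1.24 (adjusted p = 1.32e-10), with -0.47 in the first, and had a log2 value of -1.88 in siVPS4A#1. Its first-pair value was called under total-read scaling (-0.65) and turned to 0.06 against siCTRL#2.

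Of 22 further membrane proteins 21 were in the table, with 6 higher and 1 lower in the first pair and 5 higher and 2 lower in the second. CD68, a LAMP-family glycoprotein, had the largest change of these membrane proteins. It measured 7.58, 5.29, 9.48, 8.98 and 10.3 RPM in siCTRL#1, 131, 90.4, 146 and 176 RPM in the first pair and 44.5, 50.6, 95.3 and 40.5 RPM in the second. All 8 libraries were above siCTRL#1 by several times, with log2 fold changes of 3.92 (SE 0.19, adjusted p = 6.33e-20) and 2.65 (SE 0.19, adjusted p = 1.25e-14). TMBIM1 was higher at 1.51 and 1.54. SLC36A1, an amino acid transporter, was higher at 1.30 and 1.58, but it was also higher in siCTRL#2 than in siCTRL#1, at 1.56 (adjusted p = 5.14e-09). Against siCTRL#2 it measured -0.25 and 0.02, neither called.

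Of 15 further V-ATPase subunits, assembly factors and regulators 13 were in the table, and 0 were higher in either pair by limma, edgeR and DESeq2 (2 in the first pair and 1 in the second at an unadjusted p under 0.05), with 2 lower in the first pair and 1 in the second. ATP6V1C2 was lower at -1.23 (adjusted p = 1.47e-05) and -0.66 (adjusted p = 0.0103), and its second call was lost without siVPS4A+B#2 replicate 2 (-0.56), siCTRL#1 replicate 4 (-0.46) and without the replicate block (-0.60). ATP6V1G2 was lower in the first pair at -0.70 (adjusted p = 0.00569), a call lost without siVPS4A+B#1 replicate 3 (-0.55), with -0.21 in the second. Set against siCTRL#2, ATP6V1C2 measured -0.54 and 0.03, and ATP6V1G2 -0.51 in the first pair, none of them called.

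The 7 genes that deliver enzymes to lysosomes were all in the table, with 1 higher and 1 lower in the first pair. The second pair had 1 lower and 0 higher by limma, edgeR and DESeq2 (1 at an unadjusted p under 0.05). IGF2R, the large mannose 6-phosphate receptor, was higher in the first pair at 0.66 (adjusted p = 0.000218), with 0.26 in the second, and its call ended without siVPS4A+B#1 replicate 4 (0.52). Against siCTRL#2 it was called in the second pair, at 0.74. M6PR, the smaller receptor, was lower in the second pair at -0.84 (adjusted p = 6.48e-08), with -0.15 in the first. SORT1, a sorting receptor, was lower in the first pair at -0.68 (adjusted p = 4.63e-05) and measured 0.03 in the second, which turned to -0.10 under total-read scaling. The call of SORT1 ended without replicate 1 of every condition (-0.58) and against siCTRL#2 (-0.30), and that of IGF2R under total-read scaling (0.48).

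Of 16 genes of the TFEB family and its regulators 15 were in the table, with 1 higher in the first pair and 0 lower (2 lower at an unadjusted p under 0.05 in limma, 1 called by edgeR and by DESeq2), and with 1 higher and 2 lower in the second. The higher gene was TFE3, a transcription factor of that family, at 15.9 ± 3.23 RPM in siCTRL#1, 35.3 ± 6.59 RPM in the first pair and 30.4 ± 5.17 RPM in the second. Its log2 fold change was 1.11 (adjusted p = 7.74e-07) and 0.91 (adjusted p = 1.6e-05). FNIP2, a partner of folliculin, was lower in the second pair at -1.34 (adjusted p = 8.76e-09), with -0.29 in the first. LAMTOR4, a subunit of the Ragulator complex, was lower in the second pair at -0.67 (adjusted p = 0.00822), a call lost without siVPS4A+B#2 replicate 3 (-0.42), siCTRL#1 replicate 3 (-0.57), siCTRL#1 replicate 4 (-0.57) or the replicate block (-0.55). LAMTOR4 measured -0.41 in the first pair and was called there without siCTRL#1 replicate 2 (-0.62), without replicate 2 of every condition (-0.66) and under total-read scaling (-0.59). Against siCTRL#2 the second-pair calls of TFE3 (0.55) and LAMTOR4 (-0.41) were lost.

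Of 8 genes of the response to lysosome damage 6 were in the table, with 3 higher in each pair and 0 lower, and limma found 0 lower at an unadjusted p under 0.05, as did edgeR and DESeq2 at their own thresholds. Single silencing also gave calls in this list, with 5 of 6 higher in siVPS4B#1 and 3 of 6 in siVPS4A#1, against 5.61% and 9.57% of all genes. SQSTM1, an autophagy receptor, measured 554, 543, 818, 584 and 603 RPM in siCTRL#1. It measured 5224, 4238, 7133 and 7334 RPM in the first pair and 5602, 6902, 8774 and 4756 RPM in the second, far above the controls in every library. Its log2 fold change was 3.25 (SE 0.15, adjusted p = 1.08e-20) and 3.37 (SE 0.15, adjusted p = 2.11e-21). PI4K2A, a lipid kinase, was higher at 0.87 (adjusted p = 3.99e-05) and 0.73 (adjusted p = 0.000278). It was not called against siCTRL#2, at 0.17 and 0.03. LGALS8, a galectin that binds damaged membranes, was higher in the second pair at 1.00 (adjusted p = 1.27e-06), with 0.44 in the first, where it passed the limit without siVPS4A+B#1 replicate 2 (0.59) or replicate 2 of every condition (0.62). In the first pair LGALS3 was called in its place at 0.71, lost without replicate 3 of every condition (0.57) and under total-read scaling (0.53), and against siCTRL#2 it turned to -0.09. LGALS1 measured 0.53 in the second pair and was called there without siCTRL#1 replicate 1, 3 or 4 (0.59 to 0.64), without replicate 3 (0.63) or 4 (0.62) of every condition and without the replicate block (0.63). Against siCTRL#2, LGALS1 was called at 0.71 and 1.02 and LGALS9 at 0.74 and 0.91.

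In siVPS4A#1 the higher genes of that response were LGALS9 at 1.63 (adjusted p = 5.57e-10), LGALS8 at 0.67 (adjusted p = 0.000428) and LGALS1 at 0.62 (adjusted p = 0.00407), all galectins, named after their values were seen. LGALS1 lost that call without siCTRL#1 replicate 2 or 5 or siVPS4A#1 replicate 3 or 5 (0.48 to 0.57), and with the library labelled siVPS4A#1, replicate 2, included LGALS1 stood at 0.45 and LGALS8 at 0.47, neither called, while SQSTM1 was called at 1.11. In siVPS4B#1 the higher genes were LGALS3 at 0.93, LGALS9 at 0.64, LGALS8 at 0.63, LGALS1 at 0.63 and SQSTM1 at 0.59. LGALS9 lost this call without siCTRL#1 replicate 2 or siVPS4A#1 replicate 5 (0.56 to 0.58), LGALS8 without siCTRL#1 replicate 3 or siVPS4B#1 replicate 4 (0.56) and LGALS1 without siCTRL#1 replicate 2 or siVPS4B#1 replicate 3 (0.43 to 0.51). SQSTM1 lost it without siCTRL#1 replicate 2 or 4, siVPS4A#1 replicate 3 or 5 or siVPS4B#1 replicate 4 (0.55 to 0.58), and under total-read scaling (0.56). Against siCTRL#2, SQSTM1 (0.34) and LGALS3 (0.13) were not called in siVPS4B#1. Leaving out siCTRL#1 replicate 2 thus left 2 calls of the 5 in siVPS4B#1, LGALS3 and LGALS8, and including the library labelled siVPS4A#1, replicate 2, left 3, with LGALS9 at 0.71 and SQSTM1 at 0.52.

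Promoters from RefSeq (GRCh38.p14) were matched by symbol for 35 of the 49 members, giving 48 windows of 300 bases since some genes have several starts. No entry was found for CTSB, HEXA, MANBA, NAGLU, ARSA, SGSH, ASAH1, PSAP, LAMP2, ATP6V0E1, ATP6V1A, ATP6V1B2, ATP6V1C1 and ATP6V1H. The letters CACGTG, which read the same on both strands, were found in 11 of the 48 windows, or 22.9%, beside 7.26% of 35093 windows of all genes and 9.25% of 14799 windows of genes in the table. The longer TCACGTGA was found in 6 windows, or 12.5%, beside 0.98% and 1.69%. By gene the shares were 31.4% of 35 members for CACGTG, beside 8.77% of 27305 genes and 12.5% of 10211 genes in the table, and 17.1% for TCACGTGA, beside 1.18% and 2.29%. The 6 belong to CTSA and GAA of the lumen, LAMP1 and MCOLN1 of the membrane, and ATP6V0D1 and ATP6V1G1 of the V-ATPase. The motif lay close before the start in these genes, from −77 in GAA to −2 in LAMP1.

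The motif was set beside how the members moved in combined silencing. Among the 7 windows of members called higher in all 4 comparisons, 2 held CACGTG, those of CTSD at −47 and NEU1 at −126, and 0 held TCACGTGA. The other members had CACGTG in 9 of 41 windows, or 22%, and TCACGTGA in 6, or 14.6%. Counted by gene, since some have several windows, CACGTG was in 2 of 7 members called in all 4, or 28.6%, and in 9 of 28 others, or 32.1%, so which share is larger depends on the unit counted. Members with the longer motif had log2 values in the first pair from -0.14 for GAA to 0.47 for MCOLN1, with 0.17 for ATP6V0D1. In the second pair their values ran from 0.05 for GAA to 1.41 for ATP6V0D1. These are matches of letters in a fixed window and describe no binding.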

How the data were processed

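The deposited values of each library are each gene's share of that library's reads, a signal that the authors made from reads aligned with Torrent Mapping Alignment Program and counted with HTSeq 0.6.0. The submitters' processing notes also name DESeq2 1.18.1 and hg19. Dividing by the value of 1 read gave whole reads, within 0.1 read, for 100% of the 48.4% of values fine enough to tell. Gene positions are from GENCODE's annotation lifted to GRCh37. Of 12627 genes, 12471 took symbols from RefSeq, 9 from another table and 147 have none.

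Values were scaled by TMM to RPM, and log2(RPM + 1) was fitted in limma 3.58.1 with an intensity trend over all 12627 genes, 37 libraries and 9 conditions, blocked on the replicate number, and adjusted after Benjamini and Hochberg. The library titles give only that number. The study's methods account for a batch effect, and taking the number as the batch is an assumption made here. The deviations of libraries sharing it had a mean correlation over 9569 genes of 0.185 in 137 pairs (0.289 for number 1, 0.081 for 2, 0.327 for 3 and 0.016 for 4), against −0.054 in 471 other pairs. The design named edgeR's test for raw counts; the values are normalized, so limma is the main test. On the recovered reads, edgeR 4.0.16 called 3083 genes in siVPS4A+B#1 and 3938 in siVPS4A+B#2 against siCTRL#1, DESeq2 1.42.0 called 3026 and 3895, and limma 2793 and 3630.

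Given library by library are the 4 members of each role with the largest mean absolute change over the pairs, members called in all 4 comparisons (the 8 largest where more), the 2 with the largest difference between pairs, LAMP1 and CD63, and VPS4A and VPS4B. Up to 3 called genes are named from each further list, chosen by the same size; 1 of them is not reported here. The other members are accounted for by symbol. The members and lists were chosen with earlier results of these data known. Alternatives were edgeR, DESeq2, no replicate block, total-read scaling, DESeq2 size factors, a pseudocount of 0.1, a filter on low values, the left-out library included, each replicate left out and, chosen after seeing the data, each single library left out and siCTRL#2 as the control. Scripts were tested on simulated data. R 4.3.3, Python 3.11.15, numpy 2.4.6, pandas 2.3.3, scipy 1.17.1 and matplotlib 3.10.9 were used.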

Additional observations from a re-analysis of the deposited data

Results flagged for a closer look

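In 10 of 135 groups tested, 1 library stood apart from the others of its condition; chance does so in about 1 in 20 groups. NT replicate 1 was the lowest of its group for GLA, at 19.4 RPM, and for NEU1, at 39.7 RPM. IDS was highest in siVPS4A#2 replicate 4, at 171 RPM, and lowest in siVPS4A+B#2 replicate 4, at 217 RPM. CTNS was lowest in siVPS4A+B#2 replicate 3, at 11.2 RPM, and LAMP1 in siVPS4A+B#2 replicate 1, at 60.7 RPM. ATP6V0A1 was lowest in siVPS4B#2 replicate 2, at 109 RPM. ATP6V1A was lowest in siCTRL#1 replicate 5, at 19.3 RPM, and highest in siVPS4B#1 replicate 4, at 44.02 RPM. CTSB was lowest in siCTRL#2 replicate 3, at 256 RPM.

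The response to combined silencing differed from the sum of the single responses for 13 values, by the interaction test in limma with siCTRL#1 as the control. These were 5 of 49 members positive and 1 negative in the first pair, beside 3.82% and 2.38% of all genes, and 5 and 2 in the second, beside 9.64% and 8.63%. In the second pair the share of positive calls was thus close to that of all genes, and the share of negative calls was below it. In the first pair the log2 interactions were 1.26 for GLA, 0.90 for CTSL, 0.76 for NPC1, 0.74 for ATP6V0E1, 0.65 for CTSD and -0.81 for ATP6V0D1. In the second pair they were 1.63 for NPC1, 1.62 for GLA, 1.01 for CTSL, 0.61 for CTSZ, 0.59 for CTSD, -0.62 for ATP6V1C1 and -0.64 for LIPA.

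The library left out of the comparisons, labelled siVPS4A#1, replicate 2, lay above every NT and siCTRL#1 library for 27 of the 49 members, beside 24.3% of all 12627 genes. Among the 27 were 7 of the 9 that were called higher in all 4 comparisons. Of those 7 it had 173 RPM of ATP6V0A1, 709 RPM of ATP6V0E1, 589 RPM of CTSD, 34.0 RPM of GLA, 294 RPM of IDS, 131 RPM of NEU1 and 104 RPM of NPC1, from 669257 reads in all.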

How the results depend on the processing

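Of 3468 log2 values of named genes in combined silencing, from 68 results under the alternatives, 3403 kept their direction and their side of the threshold, 45 were weaker, 9 stronger and 11 reversed. Of 758 counts of members called, 731 stayed within 1.5 times, 7 were smaller and 20 larger than that, and of 576 medians 551 moved by less than the spread between replicates and 25 by more. The causes of the changes below were not tested. Under total-read scaling the members higher in siVPS4A+B#1 numbered 11, and those lower in siVPS4A+B#2 numbered 4 (2 by edgeR). Median log2 values of all members became 0.19 in siVPS4A+B#1, 0.14 in siVPS4A+B#2, 0.13 in siVPS4A#1 and 0.22 in siVPS4B#1, those of luminal members 0.30 in siVPS4A+B#1, and those of V-ATPase members 0.031 in siVPS4A+B#1 and 0.14 in siVPS4A+B#2. Over all genes that scaling gave medians of -0.16 in siVPS4A+B#1, -0.13 in siVPS4A+B#2, 0.05 in siVPS4A#1 and -0.02 in siVPS4B#1. With the library labelled siVPS4A#1, replicate 2, the median of siVPS4A#1 was 0.14, and 3 members had an interaction in the first pair. The members that lost that call did so by adjusted p, with log2 values no smaller in size.

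Leaving out each replicate or library in turn gave 14 to 18 members higher in siVPS4A+B#1 and 1 to 3 lower in siVPS4A+B#2 (3 without replicate 4). Calls numbered 1 to 5 for siCTRL#1 against NT, 5 to 9 between the pairs, 6 to 10 in siVPS4A#1, 6 to 9 in siVPS4B#1, 3 to 6 in siVPS4B#2, 9 to 13 in siCTRL#2, 3 to 6 for the first interaction and 5 to 8 for the second, and 8 to 11 members were called in all 4 comparisons. Medians ranged from 0.45 to 0.51 for luminal members of siVPS4A+B#1, 0.24 to 0.31 for all members of siVPS4A+B#2 and 0.0845 to 0.18 for siVPS4A#1.

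Without the replicate block the counts were 17 members higher in siVPS4A+B#1 and 16 in siVPS4A+B#2, 9 in all 4 comparisons, 8, 0, 6 and 5 changed in siVPS4A#1, siVPS4A#2, siVPS4B#1 and siVPS4B#2, 3 for siCTRL#1 against NT, 13 for siCTRL#2, 8 between the pairs, and 6 and 5 interactions. It ended the first-pair call of CLCN7 (0.52), the second-pair calls of ATP6V1C2 and LAMTOR4 and the second-pair interactions of CTSD (0.58) and CTSZ (0.57), and added lower calls of CTSZ in siVPS4B#2 (-0.59) and ATP6V1F in siCTRL#2 (-0.60) and a higher call of LGALS1 in the second pair (0.63). It changed no other call of a member against siCTRL#1, between the pairs, for siCTRL#1 against NT or in the interactions.

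With siCTRL#2 as the control, chosen after seeing the data, 24 members were higher in each pair, 3 were lower in siVPS4A+B#1 and 4 in siVPS4A+B#2, and 21, 13, 19 and 16 changed in siVPS4A#1, siVPS4A#2, siVPS4B#1 and siVPS4B#2. Directions reversed for CD63 (−0.11) and ATP6V1C2 (0.028) in the second pair and for GGH (0.064) and SLC36A1 (−0.25) in the first. Elsewhere ATP6V0D1 turned to −0.0034 in the first pair under total-read scaling. CTSB ranged in the second pair from −0.43 to 0.053 over the replicates and libraries left out, turning to 0.034 without replicate 4 and to 0.053 without siVPS4A+B#2 replicate 4. SORT1 turned in the second pair to −0.10 under total-read scaling and ranged from −0.018 to 0.094 over those left out, below 0 without replicate 2 and without siCTRL#1 replicate 3 or 5. Depth limits mainly ARSA, VPS4B and other genes of few RPM.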
